A study of Mus musculus with 4 samples.

Results

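The genes described here encode secreted glycoproteins of the extracellular matrix other than collagens, namely the proteins of elastic fibres and microfibrils, matricellular proteins such as tenascins and thrombospondins, large proteoglycans with their link proteins, and adhesive glycoproteins such as fibronectin. They were chosen by name as a list of 54 genes, and all 54 were found, each by 1 Ensembl identifier, among 35682 genes measured in mouse forelimb buds at E11.5. The list fell into 21 genes of elastic fibres and microfibrils, 15 matricellular genes, 9 genes of proteoglycans and link proteins and 9 other genes. Levels are given in TPM, a relative abundance that corrects for transcript length and for the size of each library. A gene was tested when it reached 1 TPM in at least 2 libraries, which 34 of the 54 genes did.

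RNA was sequenced from whole forelimb pairs of 4 embryos, each library from 1 embryo, to ask what loss of Smarcc1 changes in the limb bud. The protein of Smarcc1, BAF155, belongs to the core of BAF, a chromatin remodelling complex. The knockouts were PrxCre/+;Smarcc1c/c, in which the PrxCre transgene deletes the gene in limb mesenchyme, and the controls were Prx+/+;Smarcc1c/c, so that both genotypes were homozygous for the conditional allele and only the knockouts carried Cre. Each genotype had 1 embryo of 40 somites (replicate 1) and 1 of 39 somites (replicate 2). Values are always given in that order.

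Smarcc1, the targeted gene, was at 112 and 119.6 TPM in the control libraries and fell to 46.2 and 38.4 TPM with Cre, a log2 fold change of -1.44 ± 0.13 (SE, n = 2 for each genotype; limma, adjusted p = 0.0117 by the method of Benjamini and Hochberg, BH). Cells outside the Cre domain, such as ectoderm, endothelium and blood, remain in the tissue. Between 12555 and 12689 genes reached 1 TPM in each library, and read depth is unknown because TPM keeps no record of it. Ddx3y on the Y chromosome was at 0.0130 and 30.2 TPM in the controls and 0.0498 and 28.3 TPM in the knockouts, so sex coincided with somite stage and was balanced between the genotypes. The mesenchymal markers Prrx1, Prrx2, Twist1, Tbx5, Meis1 and Pdgfra summed to 584 and 699.9 TPM in the controls and 621 and 706 TPM in the knockouts. Among them Pdgfra, a growth factor receptor gene of mesenchyme, rose from 79.5 and 84.0 to 162 and 173 TPM (limma, BH-adjusted p = 0.0165). The transcription factor genes Prrx1 and Prrx2 lay below their controls, Prrx1 at 188 and 201 versus 130 and 139.8 TPM and Prrx2 at 141 and 207 versus 121 and 137 TPM, so the similar sums hold markers on opposite sides. Neither passed (limma, BH-adjusted p = 0.101 and 0.444), and Prrx1 passed with stage in the model (0.0293).

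As background, elastic fibres form when tropoelastin is laid down on a scaffold of fibrillin microfibrils with the help of fibulins, and is then crosslinked by lysyl oxidases. Latent TGF-beta is stored on the same microfibrils by its binding proteins. Early limb mesenchyme is known for a loose matrix rich in hyaluronan, versican and fibronectin, whereas mature cartilage and tendon proteins such as aggrecan and cartilage oligomeric matrix protein come later.

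Postn rose in the knockouts, and Emilin3 and Spock3 fell, while the most abundant matrix genes, Mfap2, Mfap4, Fn1, Vcan and Fbln1, did not pass. Emilin3 and Spock3 entered the test only through the controls, where they are high. Postn reached 1 TPM in 1 control library, so it entered only with the knockouts, where it is high. All 3 calls ended with no filter on low values. Of the 34 genes tested, 1 was higher and 2 were lower after adjustment over all genes, and 31 did not pass (limma, BH-adjusted p at a threshold of 0.05). Of all 12809 genes tested, 0.812% were called higher and 0.492% lower by this test. Without adjustment, 6 higher and 5 lower genes had a p under 0.05, 11 of 34 or 32.4%, against 13.7% of all tested genes. The list was chosen with earlier results of these data known, so this excess is not read as a result about matrix genes. Knockouts and controls did not overlap in 16 of the 34 genes, or 47.1%, against 43.9% of all tested genes, a share near the background. The median log2 fold change was -0.05 over the 34 genes and 0.01 over all tested genes. With somite stage as a term in the model, 5 were higher and 2 lower, against 4.16% of all tested genes called in either direction. The genes that joined were Efemp1, Emilin1, Mfap4 and Thbs3, all higher.

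**Figure D1:**
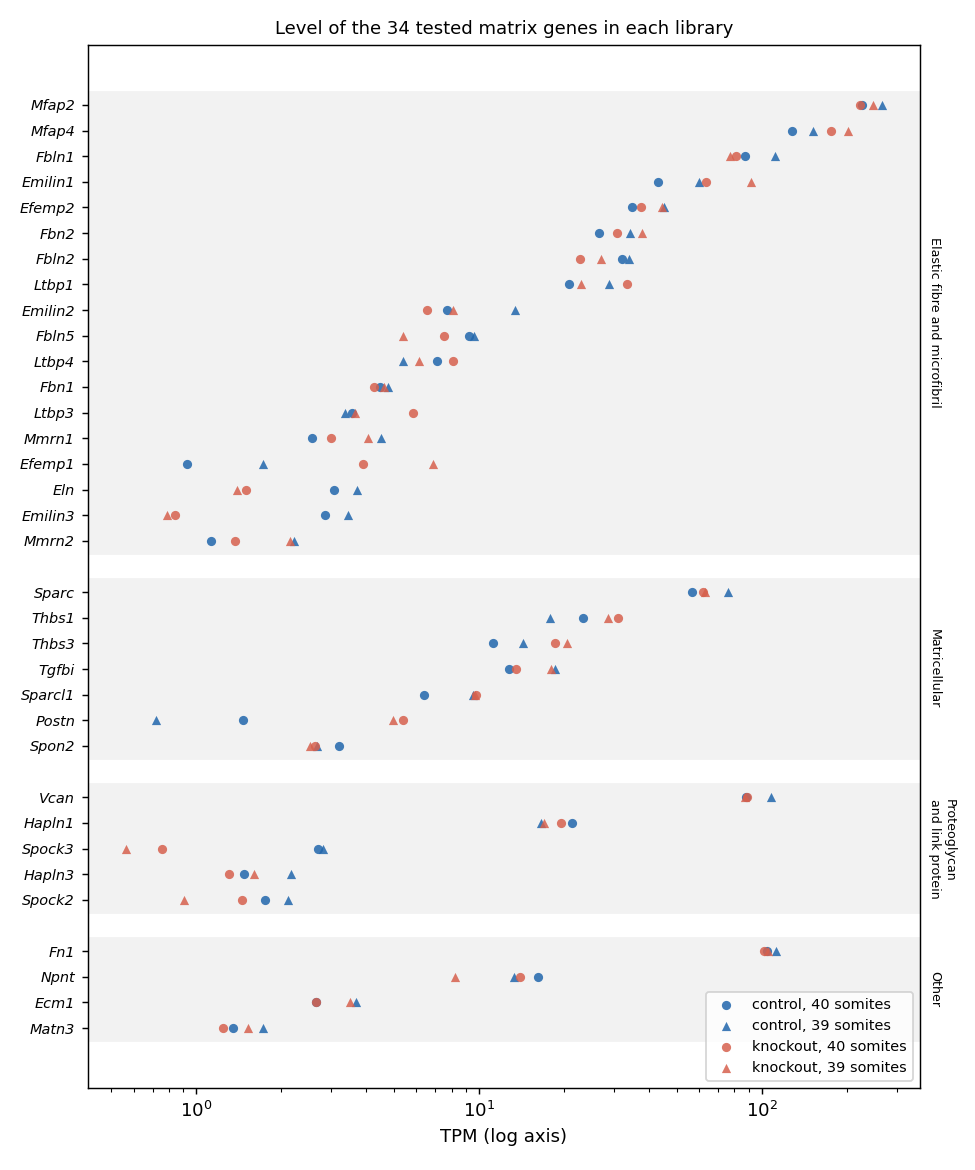
Level of each of the 34 tested matrix genes in TPM on a log axis, grouped by role, with blue for controls, red for knockouts, circles for 40 somites and triangles for 39 somites. The levels run from under 1 TPM (Spock3 at 0.562 in a knockout library) to 267 TPM (Mfap2 in a control library), and blue and red symbols are apart for Postn, Emilin3 and Spock3.

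The promoters of Postn and Efemp1 are shown because these had the largest positive log2 fold changes of the list. RefSeq promoter windows on GRCm38.p6, the mm10 assembly, matched 40 of the 54 genes. Each sequence gives the 250 bases before the annotated start, 5′ to 3′ on the plus strand, from chr3:54360857-54361106 for Postn and chr11:28852955-28853204 for Efemp1. Capitals mark matches on either strand to the TATA box TATAAA, the GC box GGGCGG, the E-box CATCTG, the GLI site GACCACCCA or the AP-1-like pattern TGANTCA. In this pattern N stands for any base, so it is wider than a strict AP-1 site.
Postn: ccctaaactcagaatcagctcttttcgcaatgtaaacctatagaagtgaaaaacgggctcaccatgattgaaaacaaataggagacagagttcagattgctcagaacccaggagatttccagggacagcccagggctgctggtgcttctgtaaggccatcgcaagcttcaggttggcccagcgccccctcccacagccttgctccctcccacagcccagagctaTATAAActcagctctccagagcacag
Efemp1: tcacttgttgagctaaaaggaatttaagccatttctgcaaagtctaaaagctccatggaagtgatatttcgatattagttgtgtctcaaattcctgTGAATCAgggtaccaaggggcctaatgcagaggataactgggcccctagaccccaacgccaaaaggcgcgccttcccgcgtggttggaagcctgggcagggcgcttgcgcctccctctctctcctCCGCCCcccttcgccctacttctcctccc
The Postn window held 1 match, a TATA box (TATAAA) at position -26 from the start. The Efemp1 window held a match to the AP-1-like pattern TGANTCA at position -154, with the letters TGAATCA. It also held a GC box (GGGCGG, on the minus strand) at position -29. Neither held the letters CATCTG, an E-box of the kind TWIST factors bind, or the GLI site GACCACCCA. No 2 of these matches overlapped. Of 32851 windows of this length in the table, 12.4% held the TATA box, 32.7% the GC box, 6.75% the AP-1-like pattern, 14.4% this E-box and 0.225% the GLI site. A match is a description of the letters and not a measured binding site.

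Among the genes of elastic fibres and microfibrils, Emilin3 fell. It encodes a secreted glycoprotein of the EMILIN family (ENSMUSG00000050700) and lies on chromosome 2 of mm10 from 160906437 to 160912328 on the minus strand. Its level was 2.86 and 3.43 TPM in the controls and 0.840 and 0.787 TPM in the knockouts. Both knockout libraries were low and the groups did not overlap. The knockout mean was 0.259 of the control mean, and the log2 fold change of TPM + 1 was -1.19 ± 0.17 (SE, n = 2 each; limma, BH-adjusted p = 0.0368). Emilin3 reached 1 TPM only in the controls, so it entered the test through the group where it is high. Without control replicate 1 or 2 the adjusted p from limma was 0.0996 and 0.141, and with no filter on low values it was 0.154. In bulk tissue, fewer cells of a type and less RNA per cell cannot be told apart.

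The other EMILIN genes did not pass. Emilin1, whose product sits at the interface of elastin and microfibrils, stood at 43.0 and 60.0 TPM in the controls and 63.6 and 91.8 TPM in the knockouts. Each knockout library lay above both controls, and within each stage the difference was similar, 0.55 log2 units at 40 somites and 0.61 at 39. Its log2 fold change was 0.58 ± 0.22 and did not pass (limma, BH-adjusted p = 0.335), whereas with stage in the model the adjusted p from limma was 0.0263. Leaving out knockout replicate 1 gave Emilin1 a log2 fold change of 0.84, and leaving out knockout replicate 2 gave 0.32. Emilin2 stood at 7.70 and 13.4 versus 6.54 and 8.06 TPM, with overlapping groups.

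The multimerin genes of the same family, Mmrn1 and Mmrn2, which are known from platelets and endothelium, overlapped between the genotypes. Mmrn1 stood at 2.57 and 4.49 TPM in the controls and 2.99 and 4.04 TPM in the knockouts. Mmrn2 stood at 1.13 and 2.22 versus 1.37 and 2.14 TPM. Both were lower in the 40-somite library of each genotype. The 10 endothelial markers were lower there too, summing to 83.0 and 145 TPM in the controls and 102 and 141 TPM in the knockouts. All 10 overlapped between the genotypes, and their part in the Mmrn values was not tested.

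Eln, the gene of tropoelastin, was low in all libraries, at 3.06 and 3.70 TPM in the controls and 1.50 and 1.39 TPM in the knockouts. The knockout libraries lay below both controls. The knockout mean was 0.428 of the control mean, with a log2 fold change of -0.84 ± 0.16 that did not pass (limma, BH-adjusted p = 0.0910). Without knockout replicate 1 its log2 fold change was -0.87, and without knockout replicate 2 it was -0.80.

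The fibulins, which link elastin to microfibrils and basement membranes, lay on both sides of their controls. Efemp1, the gene of fibulin-3, was near the filter in the controls at 0.925 and 1.73 TPM, and stood at 3.88 and 6.85 TPM in the knockouts. Only control replicate 2 reached 1 TPM, so Efemp1 met the filter only with the knockouts, where it is high. The groups did not overlap and the knockout mean was 4.05 times the control mean. Its log2 fold change of 1.43 ± 0.28 did not pass (limma, BH-adjusted p = 0.0934) but passed with stage in the model (0.0183). The difference was 1.34 log2 units at 40 somites and 1.53 at 39. Efemp1 had a log2 fold change of 1.09 without knockout replicate 2 and 1.78 without knockout replicate 1.

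Fbln2 and Fbln5, in contrast, were lower in both knockout libraries. Fbln2, of vessel walls and basement membranes, stood at 32.0 and 34.1 TPM in the controls and 22.8 and 26.9 TPM in the knockouts (-0.40 ± 0.13 on the log2 scale). Fbln5, whose product is needed for elastic fibre assembly, stood at 9.21 and 9.58 versus 7.50 and 5.37 TPM (-0.50 ± 0.18). Neither passed (limma, BH-adjusted p = 0.249 and 0.292). Fbln1, the most abundant fibulin gene, stood at 87.6 and 111 versus 81.2 and 77.5 TPM (-0.31 ± 0.14; limma, BH-adjusted p = 0.414). Efemp2, the gene of fibulin-4, also needed for elastic fibres, overlapped between the groups at 34.9 and 45.3 versus 37.3 and 44.3 TPM.

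The microfibril genes were the most abundant of the list. Mfap2, which encodes a small glycoprotein bound to fibrillin, stood at 227 and 267 TPM in the controls and 224 and 248 TPM in the knockouts. These groups overlapped, and the 95% interval of the log2 fold change ran from -0.38 to 0.25. Mfap4, which encodes an elastin- and collagen-binding protein of microfibrils, stood at 128 and 152 versus 176 and 203 TPM. Its groups did not overlap, and its log2 fold change of 0.44 ± 0.14 did not pass (limma, BH-adjusted p = 0.234) but passed with stage in the model (0.0414). Mfap4 overlaps Mapk7 on the other strand, and reads of such a pair may not be told apart where counting ignores strand.

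Of the fibrillin genes, Fbn2, the fibrillin of embryonic tissue, stood at 26.7 and 34.2 TPM in the controls and 30.9 and 37.7 TPM in the knockouts. Fbn1 was several times lower at 4.45 and 4.78 versus 4.24 and 4.63 TPM. Neither separated the genotypes, and the 95% interval of the log2 fold change was -0.23 to 0.57 for Fbn2 and -0.40 to 0.30 for Fbn1. Among genes of latent TGF-beta binding proteins, Ltbp1 stood at 20.8 and 28.9 versus 33.5 and 23.0 TPM, Ltbp3 at 3.54 and 3.37 versus 5.85 and 3.63 TPM and Ltbp4 at 7.08 and 5.37 versus 8.09 and 6.11 TPM. Ltbp1 was higher in the knockout at 40 somites and lower at 39, and none of the 3 passed.

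Counted over the 18 tested genes of this group, 0 rose and 1 fell. The remaining 17 did not pass. Without adjustment 3 higher and 4 lower genes had a p under 0.05, or 38.9%, against 13.7% of all tested genes. Their median log2 fold change was 0.02, and the range ran from -1.19 to 1.43.

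**Figure D2:**
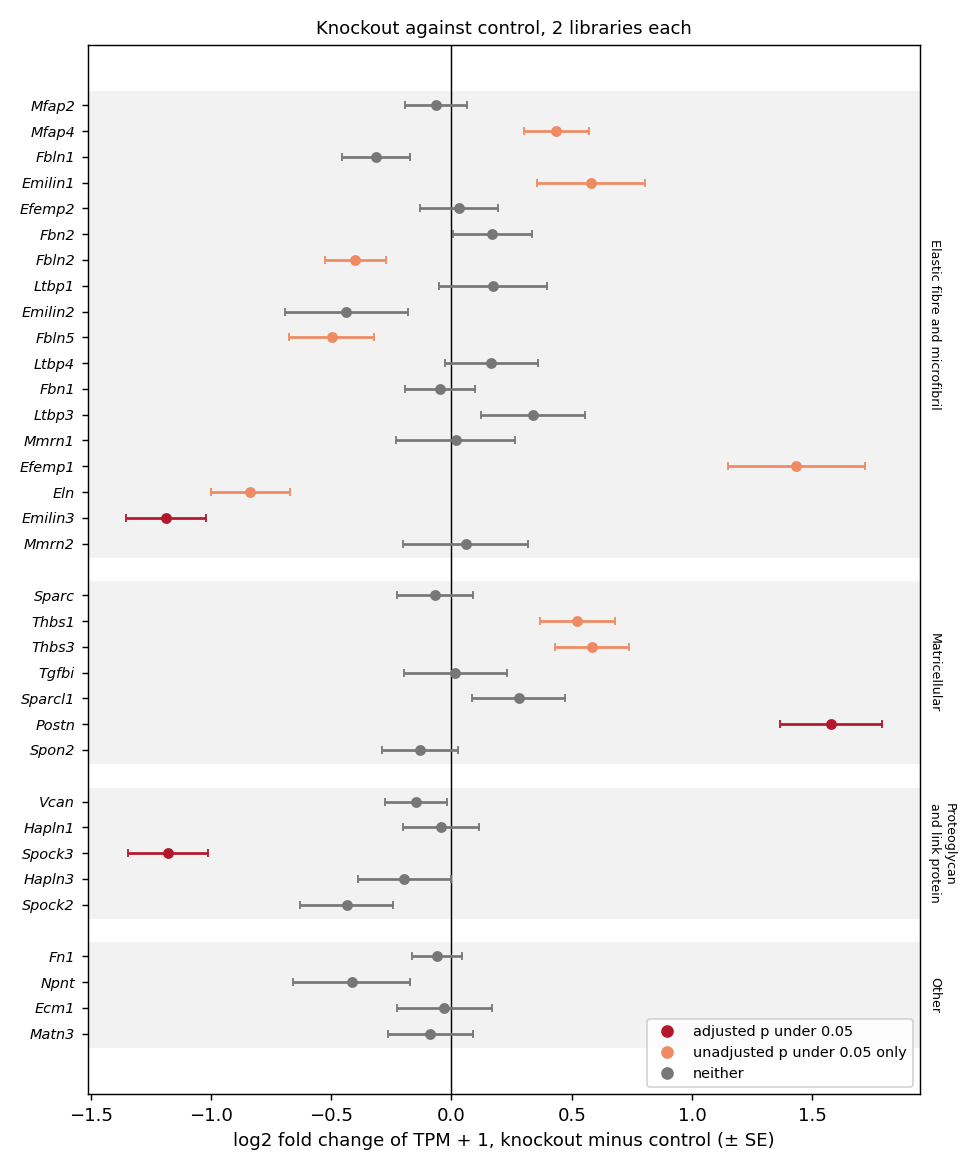
Log2 fold change of TPM + 1, knockout minus control, with its SE from limma, for the 34 tested genes in the same order as the plot of levels. Dark red marks the 3 genes past an adjusted p of 0.05, orange the 8 others at an unadjusted p under 0.05, and grey the rest. The points lie on both sides of 0 in the elastic fibre group and at or below 0 among the proteoglycans and the other genes.

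In the matricellular group, Postn rose. It encodes periostin, a matrix protein of periosteum, tendon and heart valves that binds integrins and collagen. The gene (ENSMUSG00000027750) spans chromosome 3 from 54361109 to 54391037 on the plus strand. Its level was 1.47 and 0.723 TPM in the controls and 5.37 and 4.95 TPM in the knockouts. Both knockout libraries were high and close to each other, and the groups did not overlap. Of the controls only replicate 1 reached 1 TPM, so Postn met the filter only with the knockouts, where it is high. The knockout mean was 4.71 times the control mean, and the log2 fold change of TPM + 1 was 1.58 ± 0.21 (SE, n = 2 each; limma, BH-adjusted p = 0.0346). The call ended without control replicate 2 (log2 fold change 1.32, limma adjusted p = 0.0752), under median-ratio and quantile scaling (0.0656 and 0.0671), with a pseudocount of 0.1 (log2 fold change 2.21, adjusted p = 0.0504) and with no filter on low values (0.191).

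Markers of muscle and mural cells were followed beside Postn. The 7 myoblast markers summed to 35.7 and 27.1 TPM in the controls and 41.5 and 44.4 TPM in the knockouts, with 0 of the 6 tested past the threshold and Pax7 under 0.05 TPM in every library. All 6 tested had log2 fold changes above 0. Lbx1 and Myod1 were higher in both knockouts than in both controls, and the other 4 overlapped. The 6 mural cell markers summed to 27.9 and 31.8 versus 28.2 and 28.3 TPM, with Kcnj8 and Abcc9 under 1 TPM in every library. These similar sums hold markers on both sides. Of the 4 tested, 2 had log2 fold changes above 0 and 2 below, and 0 passed. Rgs5 stood at 0.382 and 0.872 versus 1.04 and 1.63 TPM, and Cspg4 at 1.25 and 1.82 versus 1.88 and 3.11 TPM. Both were higher in both knockouts, while the more abundant Pdgfrb and Acta2 overlapped. The part of these cells in the Postn value was not tested.

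Of the thrombospondin genes, Thbs1 and Thbs3 were tested and did not pass. Thbs1, whose product can release active TGF-beta from its latent form, stood at 23.3 and 17.8 TPM in the controls and 31.0 and 28.5 TPM in the knockouts. Thbs3, a pentameric thrombospondin gene of developing cartilage, stood at 11.2 and 14.3 versus 18.5 and 20.5 TPM. In both the knockouts lay above the controls. The log2 fold changes of 0.52 ± 0.16 and 0.59 ± 0.15 did not pass (limma, BH-adjusted p = 0.219 and 0.173), and with stage in the model that of Thbs3 did (0.0474) and that of Thbs1 did not (0.0601). Thbs3 overlaps Mtx1 on the other strand. Thbs2 and Thbs4 were not tested, at 0.475 and 0.398 versus 0.214 and 0.153 TPM and at 0.291 and 0.313 versus 0.114 and 0.163 TPM. Their knockout libraries lay below their controls.

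Sparc, which encodes the collagen-binding glycoprotein osteonectin, was the most abundant matricellular gene, at 56.6 and 76.1 TPM in the controls and 62.0 and 63.1 TPM in the knockouts. Its groups overlapped, with a 95% interval of the log2 fold change from -0.45 to 0.31. Its relative Sparcl1 stood at 6.39 and 9.56 versus 9.74 and 9.72 TPM. The gap between the nearest libraries of Sparcl1 was small, and the low value was in control replicate 1. The sum of the endothelial markers was also lowest there, at 83.0 TPM. It was 102 and 141 TPM in the knockouts, where Sparcl1 was level. The part of endothelium in the Sparcl1 values was not tested. Tgfbi, a TGF-beta-induced relative of Postn, overlapped at 12.8 and 18.6 versus 13.6 and 18.0 TPM. Spon2 stood at 3.19 and 2.66 versus 2.62 and 2.53 TPM.

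The tenascins were all low. Tnc, the tenascin gene of condensing mesenchyme and tendon, stood at 0.649 and 0.591 TPM in the controls and 0.814 and 0.435 TPM in the knockouts. Tnr, of the nervous system, was under 0.2 TPM throughout. Tnn and Tnxb were each listed at 0 in 3 libraries. Spon1, a secreted guidance protein gene of the floor plate, stood at 0.913 and 0.839 versus 0.457 and 0.467 TPM, below the filter. By count, of the 7 matricellular genes tested 1 rose and 0 fell. The other 6 did not pass, and the median log2 fold change was 0.28. Without adjustment 3 higher and 0 lower genes had a p under 0.05, or 42.9%, against 13.7% of all tested genes. No direction is read for a group of 7 genes.

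Among proteoglycans, Spock3 fell. It encodes testican-3, a secreted proteoglycan related to SPARC and known from brain. The gene (ENSMUSG00000054162) spans chromosome 8 from 62951009 to 63357103 on the plus strand. Its level was 2.69 and 2.81 TPM in the controls and 0.754 and 0.562 TPM in the knockouts. The 2 controls were close together, both knockouts were low and the groups did not overlap. The knockout mean was 0.240 of the control mean, and the log2 fold change of TPM + 1 was -1.18 ± 0.17 (SE, n = 2 each; limma, BH-adjusted p = 0.0373). Like Emilin3, Spock3 reached 1 TPM only in the controls. The call ended without control replicate 1 or 2 (limma adjusted p = 0.135 and 0.141), under median-ratio and quantile scaling (0.0516 and 0.0543) and with no filter on low values (0.144).

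Markers of neural and Schwann cells, surface ectoderm and macrophages were followed beside Emilin3 and Spock3. The 7 neural and Schwann cell markers summed to 22.5 and 22.2 TPM in the controls and 19.5 and 17.4 TPM in the knockouts, with 0 of the 5 tested past the threshold. Sox10 and Foxd3, which mark neural crest and Schwann cell precursors, were under 1 TPM in every library, and Foxd3 was listed at 0 in both controls. The 12 surface ectoderm markers summed to 628 and 412 versus 493 and 311 TPM, sums that overlapped between the genotypes. All 12 had log2 fold changes below 0, and 8 of the 12 overlapped between the genotypes. Of these markers 0 passed the threshold, and with stage in the model 3 passed it, all lower. The 7 macrophage markers summed to 14.1 and 24.2 versus 14.0 and 11.2 TPM, with 0 of the 5 tested past the threshold. In replicate 1 the macrophage sums were almost level. The 7 erythroid markers, by contrast, summed to 8804 and 9084 versus 10168 and 9687 TPM. All 7 had log2 fold changes above 0, with 0 past the threshold. The part of any of these cells in the results for Emilin3 and Spock3 was not tested.

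The other testican genes were not called. Spock1 was 0.290 and 0.217 TPM in the controls and 0.827 and 1.50 TPM in the knockouts, higher in both knockouts but at 1 TPM or above in 1 library, so it was not tested. Spock2 stood at 1.75 and 2.11 versus 1.45 and 0.907 TPM, lower in both knockouts, at a log2 fold change of -0.44 ± 0.20 that did not pass (limma, BH-adjusted p = 0.414). Spock1 and Spock3 thus lay on opposite sides of their controls, and this contrast was not tested.

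Vcan, which encodes versican, the main large proteoglycan of early limb mesenchyme, stood at 88.2 and 107.9 TPM in the controls and 88.7 and 87.5 TPM in the knockouts. The groups overlapped, and the 95% interval of the log2 fold change ran from -0.46 to 0.17. Hapln1, the link protein that ties versican and aggrecan to hyaluronan, stood at 21.3 and 16.6 versus 19.5 and 17.0 TPM, with an interval from -0.43 to 0.34. Hapln3 stood at 1.48 and 2.16 versus 1.30 and 1.59 TPM. By count, 0 of the 5 tested genes of this group rose, 1 fell and 4 did not pass. All 5 log2 fold changes were below 0, with a median of -0.20, where 6179 of all 12809 tested genes lay below 0. No direction is read for a group of 5 genes.

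The large proteoglycans of cartilage and brain were close to 0. Acan, which encodes aggrecan, ran from 0.0271 TPM to 0.0564 TPM over the 4 libraries, and Bcan, which encodes brevican, from 0.0108 TPM to 0.0258 TPM. Ncan, which encodes neurocan, stood at 0.244 and 0.317 versus 0.197 and 0.262 TPM. Comp, the cartilage oligomeric matrix protein gene, did not exceed 0.115 TPM, nor Matn1, the gene of cartilage matrilin, 0.122 TPM. Early cartilage genes were present in the same libraries: Col2a1 stood at 75.7 and 73.6 TPM in the controls and 77.4 and 78.9 TPM in the knockouts. The 8 early cartilage markers summed to 193 and 224 versus 188 and 216 TPM.

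The other glycoproteins showed no call. Fn1, which encodes fibronectin, the main adhesive scaffold on which other matrix proteins assemble, was among the 5 most abundant. It stood at 104 and 112 TPM in the controls and 102 and 105 TPM in the knockouts, with overlapping groups and a 95% interval of the log2 fold change from -0.32 to 0.19. Npnt, which encodes nephronectin, a ligand of integrin alpha 8, stood at 16.2 and 13.3 versus 13.9 and 8.26 TPM. Knockout replicate 2 was the low library of Npnt. The log2 fold change of Npnt, -0.41 ± 0.24, became -0.76 without knockout replicate 1 and -0.07 without knockout replicate 2. Ecm1 and Matn3 overlapped at 2.65 and 3.67 versus 2.64 and 3.50 TPM and at 1.34 and 1.72 versus 1.24 and 1.52 TPM. By count, 0 of these 4 genes passed, and 0 had an unadjusted p under 0.05 in limma.

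Of the 20 genes that were not tested, 18 stayed under 1 TPM in every library and 10 of those under 0.2 TPM. The 10 lowest were Ltbp2, Tnn, Tnr, Tnxb, Comp, Acan, Bcan, Matn1, Ecm2 and Vit. Spock1 and Matn4 reached 1 TPM in 1 library each, Matn4 at 0.732 and 1.60 TPM in the controls and 0.933 and 0.983 TPM in the knockouts. Fbln7 stood at 0.783 and 0.961 versus 0.392 and 0.533 TPM, Matn2 at 0.623 and 0.451 versus 0.392 and 0.156 TPM, and Mfap5 at 0.325 and 0.398 versus 0.392 and 0.133 TPM. Among the 20 genes the knockouts lay above both controls in 3, below both in 7 and overlapped in 10. Of all tested genes, 43.9% did not overlap. At these levels a position above or below the controls is not read as a change, and no fold is given.

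**Figure D3:**
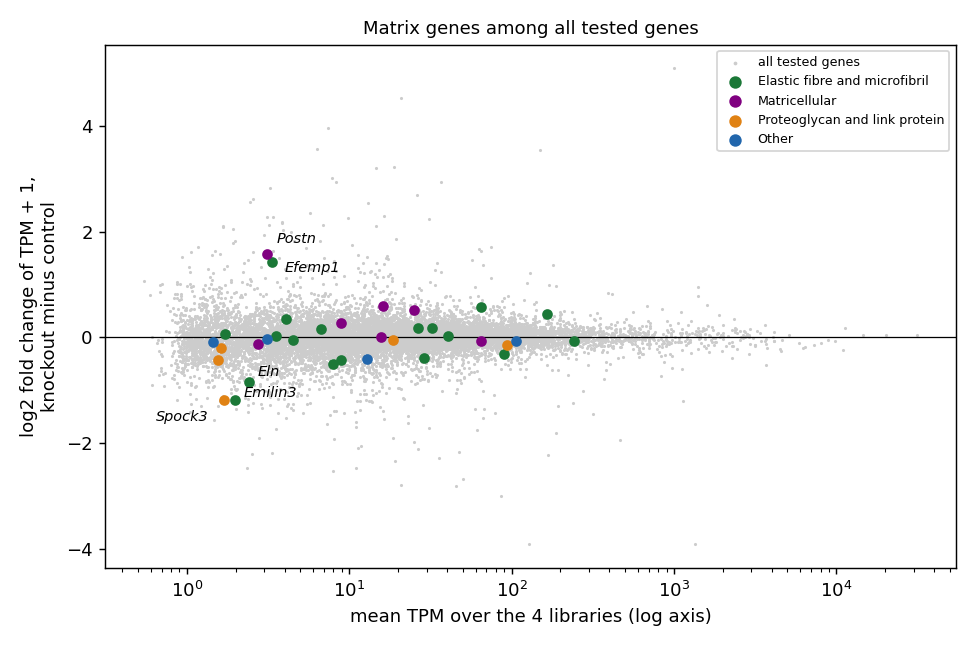
Mean TPM over the 4 libraries on a log axis against the log2 fold change of TPM + 1, knockout minus control, with grey points for all 12809 tested genes and coloured points for the 34 matrix genes. The named genes farthest from 0, Postn, Efemp1, Emilin3, Spock3 and Eln, all have mean levels under 4 TPM, while the 5 most abundant matrix genes lie between -0.31 (Fbln1) and 0.44 (Mfap4).

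By level, the matrix genes were dominated by few members. Their TPM summed to 1003 and 1193 in the controls and 1091 and 1173 in the knockouts. The 5 most abundant genes, Mfap2, Mfap4, Fn1, Vcan and Fbln1, made up 63.3% and 62.9% of that sum in the controls and 61.5% and 61.4% in the knockouts. The order below them was Emilin1, Sparc, Efemp2, Fbn2 and Fbln2, with mean levels from 64.6 down to 28.9 TPM. Emilin1 and Sparc, at mean levels of 64.6 and 64.5 TPM, overlapped in their libraries.

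Genes that crosslink, bind, synthesise or cleave these matrix components were followed as partner lists of 69 genes, of which 57 were tested. Of these, 3 rose, 0 fell and 54 were not called, where 0.812% of all tested genes were called higher and 0.492% lower. Without adjustment 7 higher and 12 lower genes had a p under 0.05 (19 of 57, or 33.3%, against 13.7% of all tested genes). These lists too were chosen with earlier results of these data known, so the excess is not read as a result. With stage in the model 4 were higher and 3 lower, where 4.16% of all tested genes were called in either direction. The 3 that rose were Lox, Has2 and Adamts9, 1 in each of 3 lists.

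Lox, the lysyl oxidase that crosslinks elastin and collagen, was 0.795 and 0.715 TPM in the controls and 7.50 and 6.33 TPM in the knockouts, 9.16 times higher by the means. Both knockout libraries were far above both controls, and the log2 fold change was 2.17 ± 0.16 (SE, n = 2 each; limma, BH-adjusted p = 0.00726). Lox reached 1 TPM only in the knockouts. Its relative Loxl2 stood at 10.0 and 10.6 versus 4.72 and 5.81 TPM, lower in both knockouts, and missed the threshold (-0.86 ± 0.15; limma, BH-adjusted p = 0.0677) but passed with stage in the model (0.0299). Of the latent growth factors, Tgfb3 stood at 6.45 and 9.20 versus 11.1 and 13.9 TPM, and Tgfb2 at 6.75 and 7.90 versus 4.19 and 4.07 TPM. These lay on opposite sides of their controls, and neither passed (limma, BH-adjusted p = 0.250 and 0.109), while Tgfb3 passed with stage in the model (0.0474) and Tgfb2 did not (0.0550). Of the 7 tested genes of this list, 1 rose and 6 did not pass, with a median log2 fold change of -0.38.

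Has2, the main hyaluronan synthase gene of embryonic mesenchyme, rose from control levels of 13.7 and 15.0 TPM to 30.2 and 27.7 TPM. The groups did not overlap, and the log2 fold change was 0.96 ± 0.12 (SE, n = 2 each; limma, BH-adjusted p = 0.0283). The gene lies on chromosome 15 from 56665627 to 56694539. The hyaluronan receptor gene Cd44 stood at 7.72 and 4.90 versus 2.69 and 1.32 TPM, lower in both knockouts, and missed the threshold (-1.29 ± 0.29; limma, BH-adjusted p = 0.119) but passed with stage in the model (0.0188). Papss2, which makes the sulfate donor for proteoglycans, stood at 2.08 and 3.39 versus 8.30 and 6.16 TPM and missed the threshold (1.15 ± 0.23; limma, BH-adjusted p = 0.0934). Chst3, Chst11 and Chst15 of the same list were lower in both knockouts. Chst3 stood at 2.33 and 2.67 versus 1.55 and 1.60 TPM. Chst11 was at 6.20 and 5.61 versus 4.30 and 3.59 TPM, and Chst15 at 6.31 and 6.59 versus 4.25 and 3.61 TPM. None of the 3 passed (limma, BH-adjusted p = 0.297, 0.248 and 0.155). Of the 19 tested genes of hyaluronan and chondroitin sulfate synthesis, 1 rose, 0 fell and 18 did not pass, with a median of -0.06. Without adjustment 2 higher and 3 lower genes had a p under 0.05 in limma, or 26.3%, against 13.7% of all tested genes.

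Adamts9, a protease gene whose product cleaves versican, rose from control levels of 3.35 and 3.33 TPM to 7.51 and 9.44 TPM. The groups did not overlap, and the log2 fold change was 1.12 ± 0.16 (SE, n = 2 each; limma, BH-adjusted p = 0.0386). It was 1 of 6 tested protease genes, and the other 5 did not pass. Without control replicate 1 or 2 the adjusted p from limma was 0.105 and 0.111 for Adamts9, and 0.0907 and 0.0704 for Has2, while Lox passed in both fits (0.0197 and 0.0306). With no filter on low values limma's adjusted p was 0.0915 for Lox, 0.140 for Has2 and 0.199 for Adamts9, and all 3 calls ended.

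**Figure D4:**
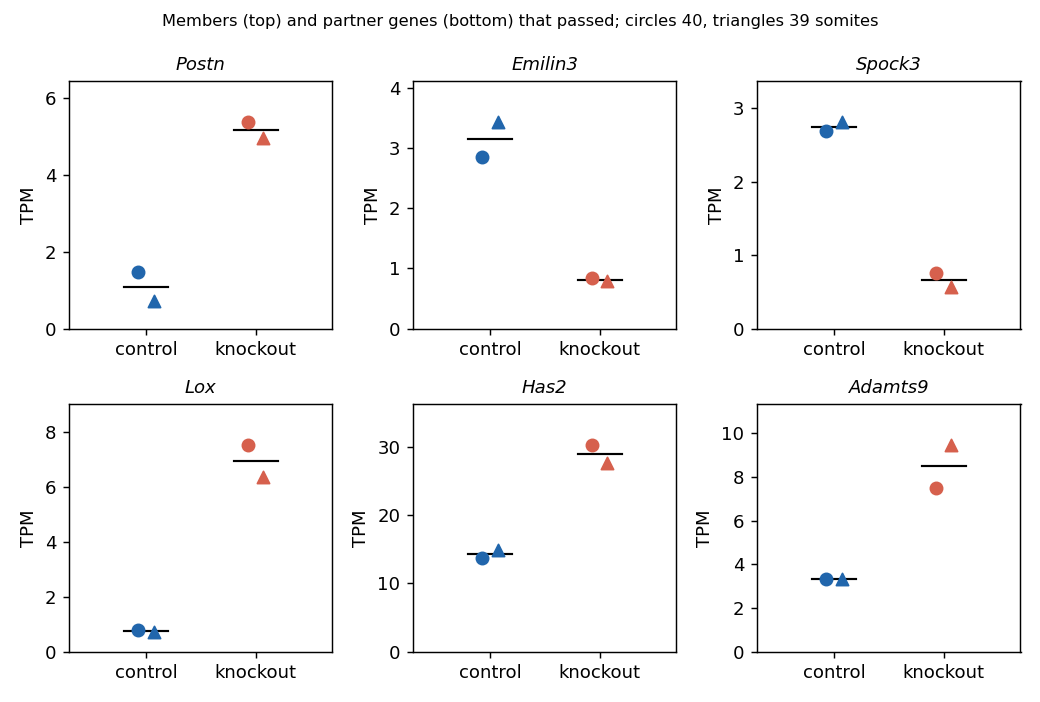
TPM of the 3 matrix genes (top) and the 3 partner genes (bottom) that passed, by genotype, on linear axes that start at 0, with 1 point per library, circles for 40 and triangles for 39 somites, and a bar at the mean of 2 libraries. In all 6 genes the knockout points lie apart from the control points, higher for Postn, Lox, Has2 and Adamts9 and lower for Emilin3 and Spock3.

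Of the 14 tested receptor genes, 0 passed. Itga8, the gene of the integrin chain that binds nephronectin, stood at 3.39 and 5.62 TPM in the controls and 8.50 and 8.36 TPM in the knockouts, higher in both knockouts (0.81 ± 0.22; limma, BH-adjusted p = 0.181). The syndecan gene Sdc3, of a heparan sulfate proteoglycan at the cell surface, stood at 17.4 and 24.6 versus 9.36 and 12.5 TPM, and missed the threshold (-0.88 ± 0.21; limma, BH-adjusted p = 0.143) but passed with stage in the model (0.0193). Another syndecan gene, Sdc4, lay on the other side, at 13.5 and 12.4 versus 18.4 and 20.3 TPM. It did not pass (0.54 ± 0.13; limma, BH-adjusted p = 0.131), nor with stage in the model (0.0605). Among 11 further matricellular and basement membrane genes tested, 0 passed, and 1 had an unadjusted p under 0.05 in limma. That gene was Smoc1, a relative of Sparc, at 16.1 and 18.5 versus 9.30 and 13.0 TPM.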

How the data were processed

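RNA of 4 forelimb pairs was sequenced on a DNBseq instrument, per the labels' protocols. The authors deposited 1 table of TPM values, with 35727 Ensembl identifiers and a column per library. Salmon 1.9.0 and the build mm10 are named, without settings, per the submitters' processing notes, and the transcript set is not given in the sources used here. The column names were matched to sample titles, 1 of which lacks a letter. Identifiers were matched to GENCODE symbols of mm10 for 35493 (99.3%), and values of 45 repeated symbols were summed.

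The filter of 1 TPM in 2 or more libraries left 12809 genes. Their log2(TPM + 1) values went into limma 3.58.1 (R 4.3.3; moderated by eBayes with trend), two-sided and without covariates, and p-values were adjusted over all 12809 by the Benjamini-Hochberg (BH) method at 0.05. Fold changes on this scale understate changes of low genes. With 2 against 2 libraries an exact permutation test cannot give a p below 0.333, so none is given. No counting interval is given because depth is unknown. The test was checked on simulated data, in which changes were placed only in genes above a set mean level. Postn, Emilin3, Spock3 and Lox lie below that level, so the check does not cover their calls. Its noise was drawn independently for each library, without an effect of stage or sex. Somite stage was an alternative term: over 12809 genes, which are not independent replicates, the deviations of the 40-somite libraries from their genotype means had a Pearson correlation of 0.25 and a Spearman correlation of 0.364.

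Named were genes past the threshold or at an unadjusted p under 0.05, the 3 most abundant of each group and the extremes of fold change; other members were named to account for the list. Partner genes other than those past the threshold were picked with their values known. The members and lists were chosen with earlier results of these data known. Alternatives were pseudocounts, filters, scalings, stage, the variance trend, each library left out and a threshold of 0.1. A filter at 0.5 TPM was added after seeing the data. 1 gene of the neural and Schwann cell marker list is not reported here and was left out of its sum.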

Additional observations from a re-analysis of the deposited data

Results flagged for a closer look

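With 1 embryo per genotype at each stage, 8 tested genes had a difference between knockout and control of opposite sign at 40 and 39 somites, and this was not tested. On the log2 scale Ltbp1 was 0.66 at 40 and -0.32 at 39 somites, Sparc 0.13 and -0.27, Mmrn1 0.16 and -0.12, Mmrn2 0.15 and -0.04, Efemp2 0.10 and -0.03, and Tgfbi 0.081 and -0.05. Vcan was 0.0078 and -0.30, and Hapln1 -0.12 and 0.03.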

How the results depend on the processing

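The calls among matrix genes rest on low levels and 2 libraries per genotype, and none of the 3 held under every setting. The number of all genes past the threshold was 167, and it was 0 with no filter on low values (2338 genes at an unadjusted p under 0.05 in limma), 533 with somite stage as a replicate block, 316 at a threshold of 0.1, and 50 to 646 with a library left out. The higher matrix genes numbered 1, and 0 with no filter, with a filter at 5 TPM, with a pseudocount of 0.1 and under median-ratio or quantile scaling, 2 at a threshold of 0.1, 5 with the stage block, and 0 to 3 with a library left out. The lower ones numbered 2, and 0 with no filter or a filter at 5 TPM (where Emilin3, Spock3 and Postn are not tested), 1 under either scaling, and 0 to 4 with a library left out. Partner genes past the threshold numbered 3, and 0 with no filter, 5 at a threshold of 0.1, 7 with the stage block and 1 to 11 with a library left out. The filter at 0.5 TPM, added after seeing the data, kept Postn, Emilin3 and Spock3 past the threshold. Pseudocounts of 0.1 and 5 gave log2 fold changes of 2.21 and 0.74 for Postn, -1.82 and -0.49 for Emilin3 and -1.92 and -0.45 for Spock3, as the pseudocount sets the scale of low genes. Where a library was left out, the lone library of its genotype is assumed to vary like the others. A call gained in such a fit is therefore not read as support for a gene. The direction was followed over the 34 tested matrix genes and 11 of the partner genes that the text names with values. It turned for 13 matrix genes, 0 of them past the threshold. Sdc4, Chst3, Chst11 and Chst15 were not followed in this way. With a library left out the log2 fold change ran from -0.21 to 0.15 for Ecm1, -0.15 to 0.22 for Efemp2, -0.10 to 0.0033 for Fbn1, -0.0021 to 0.34 for Fbn2, -0.21 to 0.13 for Hapln1, -0.089 to 0.44 for Ltbp1, -0.012 to 0.34 for Ltbp4, -0.20 to 0.020 for Matn3, -0.18 to 0.050 for Mfap2, -0.29 to 0.33 for Mmrn1, -0.24 to 0.36 for Mmrn2, -0.28 to 0.14 for Sparc and -0.24 to 0.27 for Tgfbi. Under quantile normalization it was 0.0097 for Ecm1 and -0.00045 for Tgfbi. The followed partner genes not called with all 4 libraries also moved. Without knockout replicate 1 and then without knockout replicate 2, the log2 fold change was -1.63 and -0.96 for Cd44 and 0.96 and 1.34 for Papss2. In the same order it was 0.80 and 0.82 for Itga8, -0.73 and -0.98 for Loxl2, -0.68 and -1.07 for Sdc3 and -0.39 and -0.83 for Smoc1. Over all settings that of Tgfb3 ran from 0.40 to 0.85. The cause of these changes was not tested. Median-ratio scaling moved the median of all genes from 0.0084 to -0.0048. The somite stage comes from the labels and no replicate number in them pairs the embryos; sex coincides with stage, and the block removes both.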
